A study of Mus musculus with 6 samples.

Results

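The MAP kinase cascade downstream of TAK1 was followed through 9 genes: the MAP kinases Mapk3, Mapk8, Mapk9 and Mapk14, the kinases that activate MAP kinases Map2k3, Map2k4, Map2k6 and Map2k7, and the phosphatase gene Dusp1. The genes were taken by name and every probe set annotated with only that gene's symbol was used, which gave 20 of the 45101 probe sets on the array, for 7 of the 9 genes. Mapk3 and Map2k7 had no such probe set and were not analysed here. RNA came from bone marrow B cells of C57BL/6 mice aged 8 to 12 weeks, with the sex label reading mix, that had been sorted by surface light chain, Igκ or Igλ. There were 3 groups of 2 arrays: Igκ+ cells with the genotype label mb-1/TAK1f/f, called TAK1-deficient here, and Igλ+ and Igκ+ cells with the label mb-1/TAK1+/+, called wild-type. All groups thus carry mb-1, an older name of the B-lineage gene Cd79a, and no treatment was given. The labels do not say what the mb-1 element is, how completely TAK1 was lost, or whether the arrays of a group came from separate animals. The p-values therefore reflect no more than how far these particular arrays vary, and some of that variation may be technical. With 2 arrays a group their precision is limited.

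TAK1, encoded by Map3k7, is a kinase at the top of a three-tier relay. It phosphorylates MAP2 kinases, which in turn phosphorylate the stress-activated MAP kinases JNK and p38, and these act on transcription factors such as Jun and ATF2. In B cells the relay is engaged by the antigen receptor, by CD40 and by Toll-like receptors, and DUSP phosphatases switch it off. The array measures transcripts of these proteins and not their phosphorylation. In bulk RNA, fewer cells of a type and less RNA per cell cannot be told apart.

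Promoters are shown for 3 genes because Mapk8 and Mapk9 encode the JNK pair whose transcripts are compared most closely here, and Dusp1 is a gene whose transcription responds to stress signals. Each is the stretch from 250 bases before to 50 bases after the RefSeq transcription start (assembly GRCm38.p6, 5′ to 3′ on the gene's strand), with TGACG, the core of the site bound by CREB and ATF factors, in capitals on either strand. Of the 9 genes, 8 had a promoter entry, in 14 entries.
Dusp1: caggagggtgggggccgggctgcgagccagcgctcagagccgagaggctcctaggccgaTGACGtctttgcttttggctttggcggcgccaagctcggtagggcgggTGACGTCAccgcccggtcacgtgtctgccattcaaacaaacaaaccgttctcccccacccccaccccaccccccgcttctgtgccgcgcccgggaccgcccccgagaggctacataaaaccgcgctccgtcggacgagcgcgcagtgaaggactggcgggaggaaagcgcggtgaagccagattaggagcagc
Mapk8: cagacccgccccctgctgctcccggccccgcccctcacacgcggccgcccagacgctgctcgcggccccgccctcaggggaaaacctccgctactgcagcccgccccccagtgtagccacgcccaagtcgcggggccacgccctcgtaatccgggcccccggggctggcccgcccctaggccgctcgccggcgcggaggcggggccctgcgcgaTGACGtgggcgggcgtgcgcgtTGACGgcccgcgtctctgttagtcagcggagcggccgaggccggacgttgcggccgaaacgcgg
Mapk9: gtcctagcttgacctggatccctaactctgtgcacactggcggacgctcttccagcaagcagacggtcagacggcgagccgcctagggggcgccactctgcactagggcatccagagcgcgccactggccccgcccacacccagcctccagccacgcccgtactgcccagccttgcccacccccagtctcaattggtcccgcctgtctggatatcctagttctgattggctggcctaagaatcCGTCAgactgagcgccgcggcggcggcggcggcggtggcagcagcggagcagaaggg
The Dusp1 promoter lies at chr17:26508423-26508722 on the minus strand and held the palindrome TGACGTCA beginning at position -143 from the start, besides a separate TGACG at -191. The palindrome contains a TGACG on each strand, so that these matches overlap. The printed Mapk8 promoter (chr14:33447109-33447408, minus strand) held TGACG at -36 and -14, while the other Mapk8 entry (chr14:33410975-33411274), not printed, held 0 matches to it, and the Mapk9 promoter (chr11:49846501-49846800, plus strand) held it on the opposite strand at -7. On both strands, TGACG was present in 20.8% of the 32851 promoters of this length and in 4 of the 14 entries of the cascade, and TGACGTCA in 1.79% and in 1 entry, that of Dusp1. The AP-1 motif TGANTCA was found in 2 entries against 7.81% of all promoters, a κB-type motif (GGGA and CC with any 4 bases between them) in 2 against 20.7%, and CACGTG, the E-box, in 1 against 7.15%. A match is a run of letters and not a shown site.

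The TAK1-deficient arrays stood apart from the others on the array's own controls, which bears on every level below. The median signal of all probe sets was 324 and 323 in TAK1-deficient Igκ+ samples, against 53.6 and 59.1 in wild-type Igλ+ and 53.9 and 44.9 in wild-type Igκ+ samples. The 95th percentile of 27 control probe sets with no matching RNA, used here as the background level, reached 77.7 and 75.7 in the TAK1-deficient group, against 10.3 to 17.4 elsewhere. The 3′ to 5′ signal ratio of Actb, which rises as RNA or labelling becomes incomplete, was 6.28 and 4.18 in the TAK1-deficient group, against 1.25 to 1.58 elsewhere. The geometric mean of 18 spiked controls was 47043 and 41197 in the TAK1-deficient group, against 3985 to 4608 elsewhere. Scaling on them therefore lowers the TAK1-deficient signals relative to the others. Each array had been scaled to the same trimmed mean. Of 8 B cell markers, 7 had a probe set, and all 7 were above background on every array. The 7 measured T cell markers summed to 4004 and 4315 in TAK1-deficient samples, against 95.8 to 272 in wild-type samples. Bcl11b alone gave 2431 and 2313 of the TAK1-deficient sums. Above background were 5 and 6 of the 7 in TAK1-deficient samples, 7 and 2 in wild-type Igλ+ and 4 and 4 in wild-type Igκ+ samples. The 7 stromal and endothelial markers summed to 5008 and 4758 against 991 to 1293. No listed marker was at 0. The part of these features in the results below was not tested.

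TAK1-deficient Igκ+ cells differed from wild-type Igκ+ cells in both directions across the cascade. Mapk9 fell on 3 of 3 probe sets, Mapk8 rose on 4 of 5, the brightest probe set of Mapk14 fell and a dimmer one rose, Map2k6 rose, and Map2k4 and Dusp1 each fell on 1 probe set, although 7 of these 12 called probe sets turn direction under at least 1 of 4 other scalings, as given with each below. In all, 6 of 20 probe sets were higher, 6 lower and 8 did not pass the threshold (limma, Benjamini-Hochberg adjusted p under 0.05 over 45037 probe sets). Over the whole array 78.6% of probe sets were called, 56.8% as higher and 21.8% as lower, against 60% called in the cascade. The array's shares and medians are not matched to the members for signal level, which is taken up below. The 2 groups did not overlap at 16 of the 20 probe sets, against 90.3% of all probe sets. The median log2 change was 0.45 over the cascade and 1.53 over all probe sets.

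**Figure D1:**
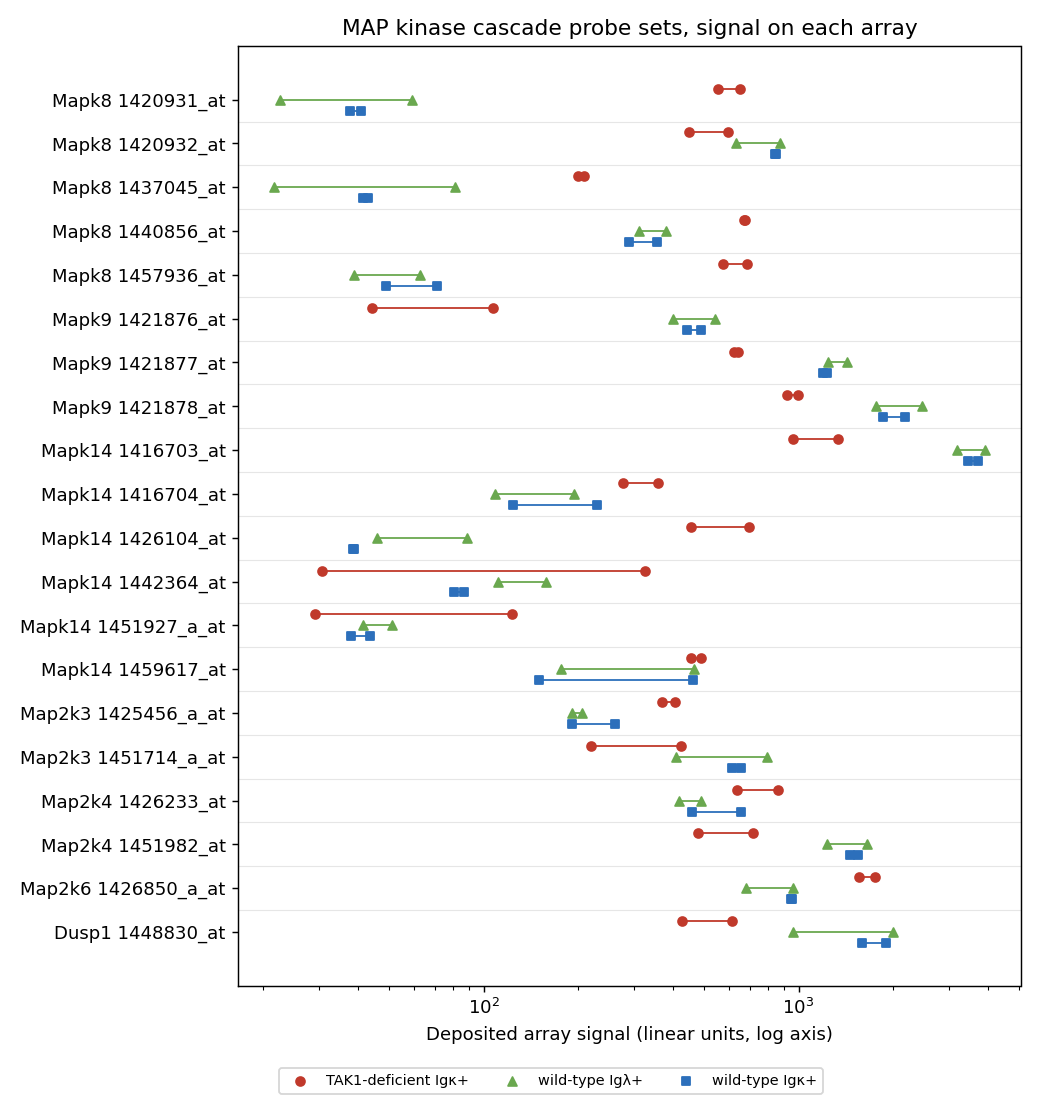
Deposited signal (x axis, linear units on a log axis) of each of the 20 probe sets (rows) on each array; points are arrays, lines join the 2 arrays of a group. TAK1-deficient signals lie left of all wild-type signals for the 3 Mapk9 probe sets and right of them for Map2k6.

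The direction of a change followed the level of the probe set in wild-type cells, across the array and within the cascade. With all probe sets divided into 10 equal groups by their wild-type Igκ+ level, the median log2 change was 3.19 in group 1, the dimmest, 2.56 in group 5, 0.51 in group 7 and -1.47 in group 10, the brightest. Members lay in groups 5 to 10. In groups 1 to 4, which held no member, 88.5% to 92.3% of probe sets were called higher. The cascade's lower share called and lower median are therefore not shown to be particular to it. Members called higher had mean wild-type Igκ+ signals up to 950, and those called lower had 466 or more. Each change is therefore also given with a level adjustment, in which every TAK1-deficient array is corrected by a smooth curve of its difference from the mean wild-type level. With it, 4 members were higher and 2 lower, against 43.5% of all probe sets called, 23.6% higher and 19.9% lower.

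**Figure D2:**
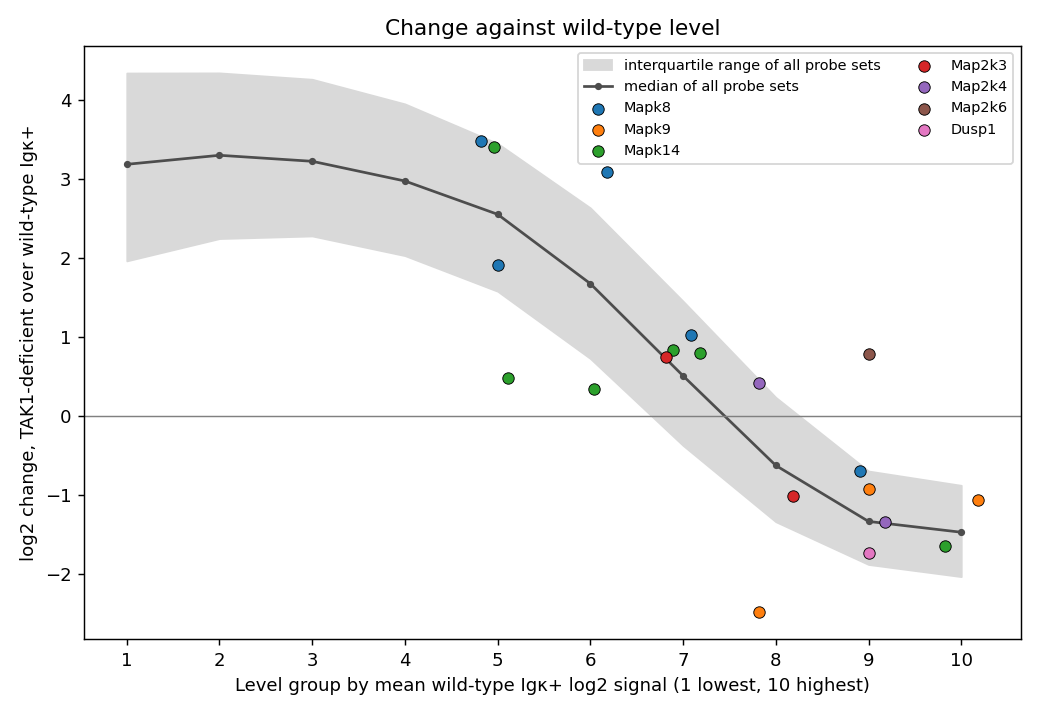
log2 change in TAK1-deficient over wild-type Igκ+ cells (y axis) against the level group of the probe set in wild-type Igκ+ cells (x axis, 1 dimmest to 10 brightest); the line is the median and the band the interquartile range of all probe sets, and points are the cascade's probe sets, spread sideways within their level group for visibility. The line runs from 3.19 to -1.47; points below the band include Mapk9 1421876_at, and points above it include Map2k6.

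JNK1 and JNK2, encoded by Mapk8 and Mapk9, are closely related kinases that phosphorylate Jun. Mapk9 probe set 1421876_at had signals of 44.4 and 107 in TAK1-deficient Igκ+ cells, against 398 and 544 in wild-type Igλ+ and 443 and 489 in wild-type Igκ+ cells. Both TAK1-deficient arrays lay below all 4 wild-type arrays, and the first was also below its own background level. The log2 change was -2.48 ± 0.40 (SE, adjusted p = 0.000932) against wild-type Igκ+ and -2.48 ± 0.40 (adjusted p = 0.000957) against wild-type Igλ+ cells by limma. It was -2.10 (adjusted p = 0.00628) with the level adjustment. This was the only member called in every alternative that tested it against wild-type Igκ+ cells, 15 in number, with log2 changes between -5.12 and -1.96 and adjusted p up to 0.0105.

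The other two Mapk9 probe sets fell less. Probe set 1421877_at had 643 and 623 in TAK1-deficient cells, against 1427 and 1245 in wild-type Igλ+ and 1231 and 1195 in wild-type Igκ+ cells. Probe set 1421878_at had 919 and 995 in TAK1-deficient cells, against 1767 and 2466 in wild-type Igλ+ and 2176 and 1849 in wild-type Igκ+ cells. In both, every TAK1-deficient signal was below every wild-type signal. Their log2 changes against wild-type Igκ+ cells were -0.92 ± 0.22 (limma, adjusted p = 0.00574) and -1.06 ± 0.23 (adjusted p = 0.00399). These directions turned with the level adjustment, to 0.35 (adjusted p = 0.22) and 0.41 (adjusted p = 0.163), neither past the threshold.

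Mapk8 probe sets that were dim in wild-type cells were higher in TAK1-deficient cells. Probe set 1420931_at had 652 and 556 in TAK1-deficient cells, against 22.6 and 59.1 in wild-type Igλ+ and 37.6 and 40.7 in wild-type Igκ+ cells, a log2 change of 3.49 ± 0.38 (limma, adjusted p = 0.000114). Probe set 1457936_at had 575 and 686 in TAK1-deficient cells, against 38.7 and 62.9 in wild-type Igλ+ and 49.1 and 71.1 in wild-type Igκ+ cells, a change of 3.10 ± 0.33 (adjusted p = 0.00011). The groups were far apart in both, but with the level adjustment the changes were 1.09 (adjusted p = 0.0508) and 1.01 (adjusted p = 0.0468), and on the scale of the spiked controls the second was -0.05, a turned sign.

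Probe set 1440856_at, at an intermediate wild-type level, had 674 and 672 in TAK1-deficient cells, against 380 and 311 in wild-type Igλ+ and 290 and 357 in wild-type Igκ+ cells. The groups did not overlap, and the log2 change of 1.03 ± 0.28 (limma, adjusted p = 0.011) was 1.01 with the level adjustment, but -1.35 with median centring and -2.27 on the spiked controls; without the first wild-type Igκ+ array its adjusted p was 0.066. Probe set 1437045_at had 208 and 199.7 in TAK1-deficient cells, against 21.6 and 80.9 in wild-type Igλ+ and 42.9 and 41.6 in wild-type Igκ+ cells. Its log2 change of 1.92 ± 0.45 (adjusted p = 0.0057) turned to -0.38 (adjusted p = 0.52) with the level adjustment, and was also negative under the other 3 scalings tried, between -0.95 and -0.46. The brightest Mapk8 probe set, 1420932_at, had 448 and 595 in TAK1-deficient cells, against 635 and 875 in wild-type Igλ+ and 847 and 842 in wild-type Igκ+ cells. Its change of -0.69 ± 0.28 missed the threshold (limma, adjusted p = 0.0553) and was 0.22 (adjusted p = 0.542) with the level adjustment. Over 16 alternatives it lay between -3.98 and 0.22, so its sign also depends on the scaling. The probe sets of Mapk8 thus do not give 1 direction for the gene.

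p38α, encoded by Mapk14, is the main p38 kinase of most tissues, and its 6 probe sets also disagreed. The brightest, 1416703_at, had 959 and 1339 in TAK1-deficient cells, against 3907 and 3184 in wild-type Igλ+ and 3454 and 3721 in wild-type Igκ+ cells. All TAK1-deficient signals were below all wild-type signals, with a log2 change of -1.65 ± 0.21 (limma, adjusted p = 0.00028), which was -0.24 (adjusted p = 0.317) with the level adjustment. Probe set 1426104_at had 455 and 694 in TAK1-deficient cells, against 45.8 and 88.3 in wild-type Igλ+ and 38.8 and 38.5 in wild-type Igκ+ cells. It was higher by a log2 change of 3.40 ± 0.37 (adjusted p = 0.000121), and by 1.24 (adjusted p = 0.034) with the level adjustment.

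The other four Mapk14 probe sets did not pass the threshold, with log2 changes of 0.34 to 0.84 and adjusted p of 0.0967 to 0.713. In 2 of them the TAK1-deficient arrays disagreed with each other: 1442364_at had 30.6 and 324 in TAK1-deficient cells, against 112 and 158 in wild-type Igλ+ and 86.6 and 80.7 in wild-type Igκ+ cells. Probe set 1451927_a_at had 123 and 29.1 in TAK1-deficient cells, against 51.2 and 41.4 in wild-type Igλ+ and 43.7 and 37.9 in wild-type Igκ+ cells. Leaving out the first TAK1-deficient array gave 1442364_at a change of 1.77 (limma, adjusted p = 0.0131). Leaving out the second gave 1451927_a_at a change of 1.29 (adjusted p = 0.0256), while the level adjustment gave it -1.81 (adjusted p = 0.0231). Of the remaining pair, 1416704_at had 277 and 359 in TAK1-deficient cells, against 109 and 194 in wild-type Igλ+ and 124 and 229 in wild-type Igκ+ cells, and 1459617_at had 457 and 490, against 176 and 465 and 150 and 462 in the same groups.

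MKK6 and MKK3, encoded by Map2k6 and Map2k3, activate p38. Map2k6 probe set 1426850_a_at had 1746 and 1559 in TAK1-deficient cells, against 682 and 960.5 in wild-type Igλ+ and 945 and 956 in wild-type Igκ+ cells. Both TAK1-deficient signals were above all wild-type signals, whereas 74.9% of all probe sets in its level group, group 9, were called lower. The log2 change was 0.79 ± 0.25 (limma, adjusted p = 0.0204) and 1.79 (adjusted p = 0.00162) with the level adjustment, but it turned to -1.59 with median centring and -2.61 on the spiked controls. The call was lost without the first TAK1-deficient array (adjusted p = 0.0906) and without either wild-type Igκ+ array (adjusted p = 0.0762 and 0.0725).

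Map2k3 passed with neither of its probe sets. Probe set 1425456_a_at had 369 and 405 in TAK1-deficient cells, against 206 and 190 in wild-type Igλ+ and 191 and 262 in wild-type Igκ+ cells, a log2 change of 0.75 ± 0.30 (limma, adjusted p = 0.0506). Probe set 1451714_a_at had 220 and 424 in TAK1-deficient cells, against 795 and 409 in wild-type Igλ+ and 658 and 613 in wild-type Igκ+ cells, a change of -1.01 ± 0.43 (adjusted p = 0.0617). The 2 probe sets thus differ in sign.

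MKK4, encoded by Map2k4, activates JNK and can also activate p38. Probe set 1451982_at had 478 and 715 in TAK1-deficient cells, against 1649 and 1227 in wild-type Igλ+ and 1547 and 1460 in wild-type Igκ+ cells, with no overlap. It fell by 1.34 ± 0.28 on the log2 scale (limma, adjusted p = 0.00322), and the level adjustment left a change of 0.01 (adjusted p = 0.981). Probe set 1426233_at had 862 and 637 in TAK1-deficient cells, against 416 and 488 in wild-type Igλ+ and 459 and 654 in wild-type Igκ+ cells. It overlapped with wild-type Igκ+ cells and was not called (log2 change 0.42 ± 0.31, adjusted p = 0.233).

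DUSP1 dephosphorylates p38 and JNK in the nucleus, and its gene is switched on rapidly by stress. Dusp1, whose promoter above holds the TGACGTCA palindrome, had 614 and 426 in TAK1-deficient cells, against 1994 and 959 in wild-type Igλ+ and 1587 and 1898 in wild-type Igκ+ cells. It was lower on both TAK1-deficient arrays than on any wild-type array, although the wild-type Igλ+ arrays themselves were far apart. The log2 change was -1.73 ± 0.38 (limma, adjusted p = 0.00406), and -0.36 (adjusted p = 0.474) with the level adjustment. Among 18192 other genes with a single-symbol probe set, Rnf144a, Jpt2, Entpd6, Ints3 and Xrcc5 had the pattern over the 6 arrays most like that of Dusp1, with root mean square log2 differences of 0.153 to 0.182 after centring. Rnf144a, for example, had 610 and 486 in TAK1-deficient cells, against 2185 and 1295 in wild-type Igλ+ and 2031 and 1994 in wild-type Igκ+ cells.

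**Figure D3:**
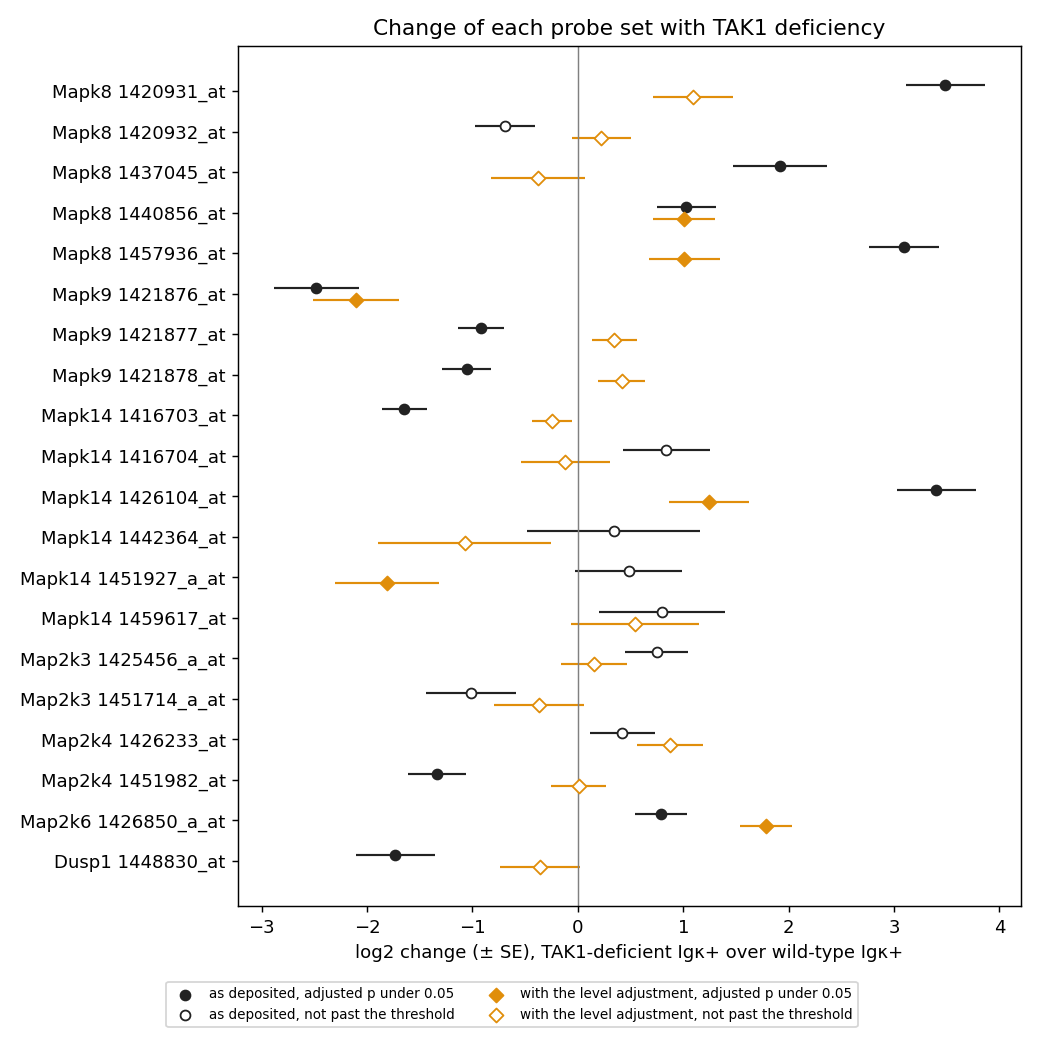
log2 change (x axis) in TAK1-deficient Igκ+ over wild-type Igκ+ cells for each of the 20 probe sets (rows), as deposited (circles) and with the level adjustment (diamonds); bars are the SE and filled symbols have an adjusted p under 0.05. Mapk9 1421876_at is at -2.48 and -2.10, while Dusp1 is at -1.73 and -0.36.

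Set against wild-type Igλ+ cells, where genotype and light chain differ together and the TAK1-deficient arrays are the same, 7 members were higher and 6 lower, against 77.9% of all probe sets called, 55.8% higher and 22.0% lower. The groups did not overlap at 16 of 20 members, against 88.1% of all probe sets. With the level adjustment 5 were higher and 2 lower, against 44.8% of all probe sets called, 22.5% higher and 22.3% lower. The additional call was Map2k3 1425456_a_at, with a log2 change of 0.91 ± 0.30 (limma, adjusted p = 0.0245), which was lost without either TAK1-deficient array or the second Igλ+ array (adjusted p = 0.0805, 0.117 and 0.0532). The Dusp1 change of -1.41 ± 0.38 (adjusted p = 0.0108) missed the threshold without the second TAK1-deficient array (adjusted p = 0.0552), and that of Mapk8 1440856_at without either TAK1-deficient array (adjusted p = 0.0671 and 0.0648). Map2k6 was higher by 1.01 ± 0.25 (adjusted p = 0.00678), and Map2k4 1426233_at, not called as deposited, was higher by 1.14 (adjusted p = 0.0227) with the level adjustment.

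Between wild-type Igλ+ and wild-type Igκ+ cells no member passed the threshold. By limma, 0 of 20 were called and 0 had an unadjusted p under 0.05, with log2 differences of -0.32 to 0.58, against 0.00% called and 1.98% with an unadjusted p under 0.05 over all probe sets. The lowest unadjusted p among members was 0.179, for Mapk14 1426104_at (log2 difference 0.55 ± 0.37), whose Igλ+ signals of 45.8 and 88.3 were both above the Igκ+ signals of 38.8 and 38.5. The groups did not overlap at 3 of 20 members, against 27.1% of all probe sets. Markers of other cells were uneven within both wild-type groups. For 3 NK cell markers the sums were 1241 and 7.99 on the Igλ+ arrays, against 141 and 2005 on the Igκ+ arrays. The first Igλ+ array stood apart in myeloid markers: 8 granulocyte markers summed to 36120 and 320 on the Igλ+ arrays, against 5198 and 313 on the Igκ+ arrays, and 7 monocyte and macrophage markers to 9959 and 518, against 2198 and 917. Without that array 0 members were called. Dusp1, at 1994 on that array and 959 on the other, was the member with the lowest log2 difference, at -0.32 ± 0.38.

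**Figure D4:**
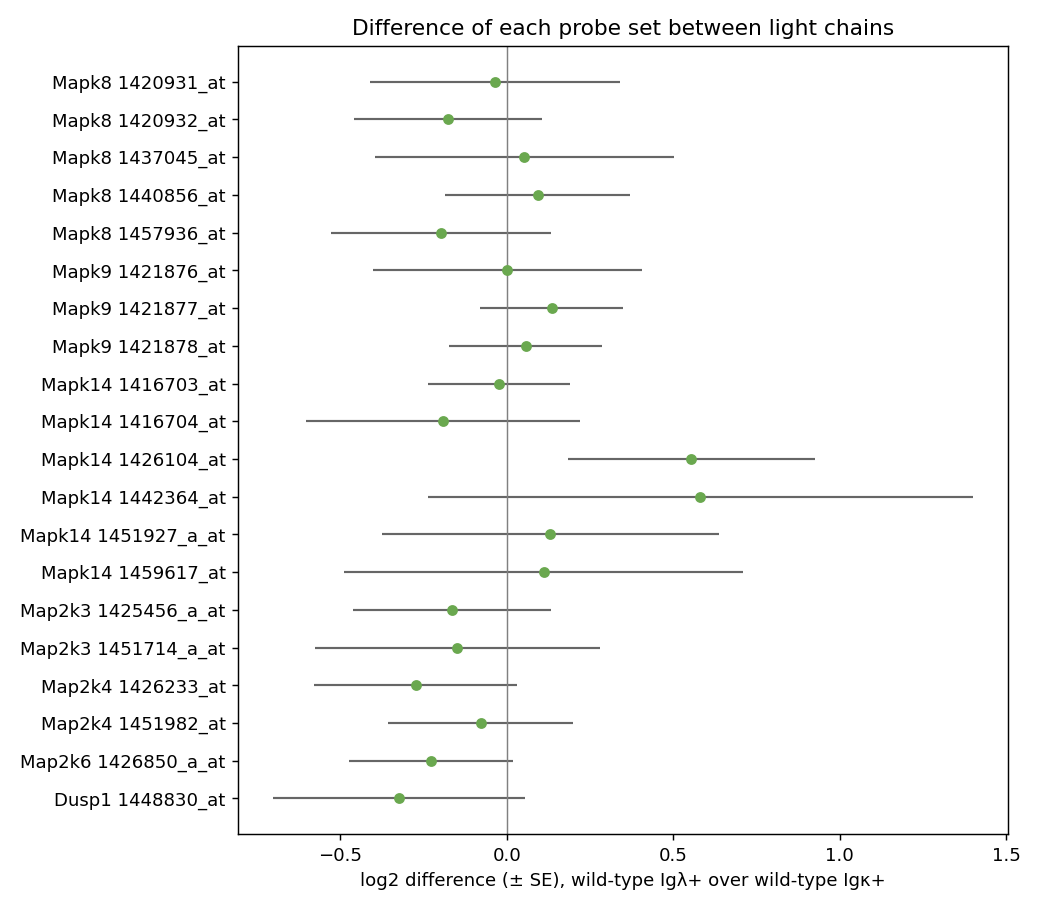
log2 difference (x axis, bars are the SE) in wild-type Igλ+ over wild-type Igκ+ cells for each of the 20 probe sets (rows). The differences run from -0.32 for Dusp1 to 0.58 for Mapk14 1442364_at, and none passed the threshold.

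Around these genes, 67 of 72 other genes of MAP kinase signalling had 166 probe sets, of which 54 were higher and 69 lower in TAK1-deficient Igκ+ than in wild-type Igκ+ cells, with a median log2 change of -0.23. Over the whole array as deposited, the shares to read these counts and those of the lists below against, 56.8% of probe sets were higher and 21.8% lower. With the level adjustment 29 of the 166 were higher and 51 lower, against 23.6% and 19.9% of all probe sets. On the spiked controls 7 of the 166 were higher and 123 lower, against 9019 and 21332 of all 45037. The TAK1 complex had 7 of 11 probe sets lower and 1 higher, the other MAP2 kinases 5 of 7 lower and 1 higher, and kinases acted on by MAP kinases 10 of 15 lower and 2 higher. Scaffold genes had 12 of 20 higher and 6 lower, but the other 4 scalings gave 2 to 5 higher and 5 to 10 lower. The other MAP3 kinases had 14 of 41 higher and 15 lower, the other MAP kinases 6 of 13 higher and 3 lower, the other phosphatases 9 of 22 higher and 7 lower, and the target transcription factors 9 of 37 higher and 16 lower; in the MAP kinases and phosphatases the balance turned under all 4 other scalings, and in the transcription factors with the level adjustment (10 higher, 6 lower). The balance of the whole array shifted as well. Of all calls, 72.3% were higher as deposited, 44.2% with quantile normalization, 33.3% with median centring, 29.7% on the spiked controls and 54.2% with the level adjustment. Between the wild-type groups 0 of the 166 were called by limma and 3 had an unadjusted p under 0.05.

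Map3k7 itself, which encodes TAK1, fell on 4 of 6 probe sets, and these 4 stayed negative under the other scalings. With the level adjustment, though, 1419988_at (-0.62, limma, adjusted p = 0.0983) and 1425795_a_at (-0.75, adjusted p = 0.0767) missed the threshold. The other called probe sets, 1449693_at (-1.18, adjusted p = 0.0204) and 1455441_at (-0.81, adjusted p = 0.0365), passed it. The brightest Map3k7 probe set, 1419988_at, had 346 and 599 in TAK1-deficient cells, against 2149 and 1957 in wild-type Igλ+ and 2196 and 1805 in wild-type Igκ+ cells, with a log2 change of -2.09 ± 0.29 (limma, adjusted p = 0.000437). Where its probes lie relative to the targeted part of the gene is not given in the sources used here. Of the TAK1-binding adaptors, Tab2 fell by 0.53 ± 0.12 (adjusted p = 0.00453) and 0.64 ± 0.23 (adjusted p = 0.035) on its 2 probe sets. With the level adjustment their changes were 0.72 (limma, adjusted p = 0.00341) and 0.63 (adjusted p = 0.0537), so the first was then called in the opposite direction. Tab3 fell by 1.48 ± 0.23 (adjusted p = 0.000698), and by 0.19 with the level adjustment. Tab1 rose by 1.10 ± 0.33 (adjusted p = 0.0165) on 1 of its 2 probe sets, and this turned to between -2.01 and -0.03 under the other scalings.

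Among the other pathway genes that passed, the largest rises at a gene's brightest probe set were in phosphatases, a scaffold and a JNK. Dusp16, which encodes a JNK-directed phosphatase, had 2869 and 2577 on 1440615_at in TAK1-deficient cells, against 67.9 and 73.8 in wild-type Igκ+ cells, a log2 change of 4.98 ± 0.37 (limma, adjusted p = 2.2e-05). Its other probe set, 1418401_a_at, went the opposite way, with 195 and 262 against 915 and 920 and a change of -1.95. Mapk8ip2, a JNK scaffold gene, had 402 and 363 on 1455194_at in TAK1-deficient cells, against 4.82 and 0.985 in wild-type Igκ+ cells. Both of those wild-type signals were below background, so on the deposited scale alone it was at least 32.5-fold higher (limma, adjusted p = 1.32e-05). Such a bound sets the bright group's mean against the higher of the dim signal and background on each array. It makes no correction for the higher background and median of the TAK1-deficient arrays. Under the other scalings the log2 change of 1455194_at was 1.17 to 2.55. Dusp8 rose by 3.57 ± 0.30 (adjusted p = 3.55e-05) and Mapk10, which encodes JNK3, by 3.54 ± 0.26 (adjusted p = 2.13e-05). Mapk10 1458513_at had 260 and 283 in TAK1-deficient cells, against 6.95 and 10.4 in wild-type Igκ+ cells. Background on those wild-type arrays was 13.4 and 10.3, so its wild-type signals were at the floor. With the level adjustment the Mapk10 change was 0.32 (adjusted p = 0.352). The brightest probe sets of these 4 genes stayed positive under the other scalings, the lowest changes being 1.71 for Dusp16, 1.17 for Mapk8ip2, 0.63 for Dusp8 and 0.32 for Mapk10. Some dimmer ones turned. Dusp8 1418714_at, at 1.38 as deposited, lay between -1.54 and -0.66, and Dusp8 1428864_at reached -1.48. Mapk10 1437195_x_at reached -0.86, and Mapk8ip2 1418786_at and 1418785_at reached -1.39 and -0.15. Mapk10 1448342_at and Mapk8ip2 1435045_s_at and 1449225_a_at stayed positive.

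The largest falls at a gene's brightest probe set, among these other pathway genes, were in 4 kinases. Map3k14, which encodes the NF-κB-inducing kinase, had 48.7 and 32.1 on 1434364_at in TAK1-deficient cells, both below background there, against 616 and 492 in wild-type Igκ+ cells. On the deposited scale alone it was at least 7.18-fold lower (limma, adjusted p = 7.72e-05), and its log2 change with the level adjustment was -2.72. Its other probe set, 1422999_at, had 337 and 256 against 220 and 158, with a positive log2 change of 0.61 that was not called (adjusted p = 0.12). Map2k2, which encodes the ERK activator MEK2, fell by 3.28 ± 0.64 (adjusted p = 0.00229) and Map3k8, a kinase upstream of MEK, by 2.78 ± 0.32 (adjusted p = 0.000165). Map2k2 1415974_at had 190 and 34.3 in TAK1-deficient cells, against 908 and 1039 in wild-type Igκ+ cells. The TAK1-deficient arrays thus lay far apart, and the second was below its background of 75.7. Mapk11, which encodes p38β, had 438 and 407 on 1421926_at in TAK1-deficient cells, against 2302 and 2771 in wild-type Igκ+ cells, a change of -2.54 ± 0.28 (adjusted p = 0.000131). All 4 named probe sets remained lower and past the threshold with the level adjustment, and were lower by more under the other 3 scalings. They were chosen by the same rule from these arrays, so this is not independent support for a fall. The rule for naming these genes selected the same 8 against wild-type Igλ+ cells.

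**Figure D5:**
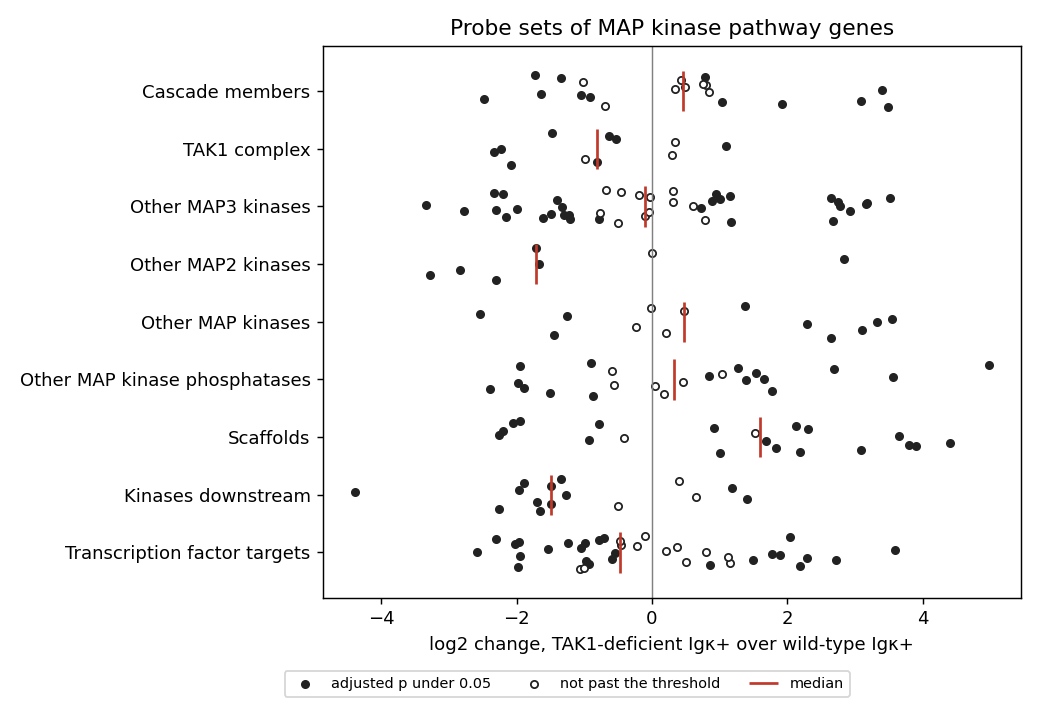
log2 change (x axis) in TAK1-deficient Igκ+ over wild-type Igκ+ cells for every probe set of the cascade and of the 8 lists of other pathway genes (rows); filled points have an adjusted p under 0.05 and red lines are medians. The cascade's median is 0.45, that of the other MAP2 kinases -1.71 and that of the scaffolds 1.60.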

How the data were processed

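The deposited values are array intensities on a linear scale, computed by the authors in MAS5, per the submitters' processing notes; no version is given in the sources used here. A common scale was set: the mean of each array, trimmed by 2% of probe sets at either end, is 500. Gene names came from the platform annotation: 34945 had 1 gene symbol, 932 several and 9160 none, and 64 were controls. All 20 member probe sets matched a RefSeq table (GRCm38.p6), used for names and promoters.

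Signals were converted to log2(signal + 16), on which a fold change understates the change of dim probe sets. All 45037 non-control probe sets were fitted without a filter with limma 3.58.1 (R 4.3.3): 1 mean per group over 6 arrays, 3 residual degrees of freedom, eBayes with a trend, two-sided, Benjamini-Hochberg adjusted over all, threshold 0.05. The level adjustment subtracts a lowess curve (span 0.2). The code was tested on simulated data. Figures were drawn with matplotlib 3.10.9 (Python 3.11.15).

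All member probe sets were named. Of the other pathway genes, the 4 largest changes per comparison and direction were named among genes past the threshold without overlap, each by its brightest probe set, and Map3k7, Tab1, Tab2 and Tab3 always. Members and lists were chosen with earlier results of these data known. Other alternatives were pseudocounts, filters, 1 probe set per gene, other scalings, eBayes without a trend, fewer arrays, a block and leaving out each array. Comparisons with wild-type Igκ+ and Igλ+ cells share the TAK1-deficient arrays, so their agreement is not independent.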

Additional observations from a re-analysis of the deposited data

How the results depend on the processing

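Many member directions depended on the scaling. Against wild-type Igκ+ cells 7 of the 12 called members turned under at least 1 other scaling, and against wild-type Igλ+ cells 8 of 13. Of the calls as deposited against wild-type Igκ+ cells (12) and Igλ+ cells (13), 1 in each remained under every alternative that tested it, Mapk9 1421876_at. In TAK1-deficient against wild-type Igκ+ cells, members called higher and lower (6 and 6 as deposited) numbered 4 and 10 with quantile normalization, 2 and 16 with median centring, 0 and 16 on the spiked controls and 4 and 2 with the level adjustment. Members called higher numbered 2 with the filter at the 60th percentile and 1 with 1 probe set per gene, where fewer were tested. Against wild-type Igλ+ cells (7 and 6) the numbers were 4 and 10, 2 and 15, 0 and 16, and 5 and 2 under those scalings, and 2 and 1 higher under the filter and with 1 probe set per gene. Leaving out each array gave 4 to 7 higher and 6 to 7 lower against wild-type Igκ+ cells, 5 to 7 and 6 to 7 against wild-type Igλ+ cells, and 0 between the wild-type groups, where every alternative gave 0; a group left with 1 array is assumed to vary like the others. Over all probe sets, calls higher and lower against wild-type Igκ+ cells numbered 25599 and 9815 as deposited (72.3% higher), 11429 and 9516 or 4991 and 8934 under the filters, 3738 and 5783 with 1 probe set per gene, 12230 and 15452 (44.2%) with quantile normalization, 10668 and 21376 (33.3%) with median centring, 9019 and 21332 (29.7%) on the spiked controls, and 10616 and 8968 (54.2%) with the level adjustment. The median change of all was then 1.53 as deposited, -0.19, -0.85, -0.86 and -0.01 under the 4 scalings, and that of the members 0.45, -0.94, -1.93, -2.54 and 0.19. Between the wild-type groups, leaving out the second Igλ+ array gave 4 and 21 calls over all probe sets. With the title suffix as a replicate block, 7 and 6, 8 and 6, and 0 and 0 members were called against wild-type Igκ+, against wild-type Igλ+ and between wild-type groups. Deviations of same-numbered arrays correlated at 0.00204, -0.000288 and 0.194 for these comparisons, and the main fit used no pairs. In the wild-type Igκ+ and Igλ+ groups the granulocyte markers summed to 5198 and 36120 on the first arrays and 313 and 320 on the second. Whether same-numbered wild-type arrays share a batch was not tested.

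Turned directions are listed here where the change passed the threshold as deposited or under that scaling. Sign changes passing under neither are not listed: 2 with quantile normalization and 3 with the level adjustment against wild-type Igκ+ cells. Directions that turned against wild-type Igκ+ cells were, with quantile normalization, Mapk8 1437045_at (-0.80), Mapk14 1416704_at (-1.17) and 1451927_a_at (-1.71) and Map2k3 1425456_a_at (-0.86). With median centring they were Mapk8 1437045_at (-0.46) and 1440856_at (-1.35), Mapk14 1416704_at (-1.54), 1442364_at (-2.04), 1451927_a_at (-1.90) and 1459617_at (-1.58), Map2k3 1425456_a_at (-1.63), Map2k4 1426233_at (-1.96) and Map2k6 (-1.59). On the spiked controls they were Mapk8 1437045_at (-0.95), 1440856_at (-2.27) and 1457936_at (-0.050), Mapk14 1416704_at (-2.30), 1442364_at (-2.25), 1451927_a_at (-1.88) and 1459617_at (-2.45), Map2k3 1425456_a_at (-2.46), Map2k4 1426233_at (-2.91) and Map2k6 (-2.61). With the level adjustment they were Mapk8 1437045_at (-0.38), Mapk9 1421877_at (0.35) and 1421878_at (0.41), Mapk14 1451927_a_at (-1.81) and Map2k4 1451982_at (0.0090).

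Against wild-type Igλ+ cells the same rule for listing was used. It leaves out 2 sign changes with quantile normalization, 1 with median centring and 1 with the level adjustment. The same scalings turned, with quantile normalization, Mapk8 1437045_at (-0.65), Mapk14 1451927_a_at (-1.68) and Map2k3 1425456_a_at (-0.70). Median centring turned Mapk8 1437045_at (-0.37) and 1440856_at (-1.29), Mapk14 1416704_at (-1.20) and 1451927_a_at (-1.88), Map2k3 1425456_a_at (-1.32), Map2k4 1426233_at (-1.53) and Map2k6 (-1.22). The spiked controls turned Mapk8 1437045_at (-0.83) and 1440856_at (-2.19), Mapk14 1416704_at (-1.93), 1426104_at (-0.12), 1451927_a_at (-1.87) and 1459617_at (-2.38), Map2k3 1425456_a_at (-2.11), Map2k4 1426233_at (-2.44) and Map2k6 (-2.20). The level adjustment turned Mapk8 1437045_at (-0.43), Mapk9 1421877_at (0.21) and 1421878_at (0.36), Mapk14 1451927_a_at (-1.94) and Map2k4 1451982_at (0.087). The cause was not tested.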
